A study of Danio rerio with 23 samples.

Results

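The data described here are the unexposed control (CTRL) retinae of a larval zebrafish study of light-induced retinal damage, and they show what an undamaged retina of this preparation expresses and how far control samples differ from each other. The members are the count columns whose names contain Ctrl or CTRL, which gave 9 of the 17 libraries in the table. No light-exposed library entered any value below. The labels list 12 CTRL samples, of which replicates 7, 9 and 9-rep have no counts in that table and were not analysed here. Replicates 1 and 2 carry library index numbers of a first series and the other 7 libraries (replicates 3, 4, 5, 6, 8, 10 and 11) those of a second, called series 1 and series 2.

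The sources disagree on the fish. According to the methods of the study, the transgenic Tg(fli:gal4;UAS:mCherry) line and TU wild types were in use, the larvae were pigmented, and control and exposed retinae were sequenced from the same collection time, which the exposure schedule puts at 6 days post-fertilization. By the same methods, embryos were incubated in the dark after collection. How controls were handled during the exposure is not given in the sources used here. Each RNA sample was a pool of retinae lysed in TRIzol, and which line each pool came from is not given in the sources used here. The labels instead describe adult fish under a standard light cycle, dissection right after exposure and RNA from a column kit, and they name no pools. No allele or treatment was specific to the CTRL group.

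The vertebrate retina turns light into neural signals. Rod and cone photoreceptors hold opsins and a phototransduction cascade, bipolar cells pass their signal inward, horizontal and amacrine cells shape it laterally, and ganglion cells send it to the brain through the optic nerve. Muller glia span all layers and, in zebrafish, can re-enter the cell cycle after injury, while a ciliary margin at the rim of the eye keeps adding cells. Larval zebrafish vision is dominated by cones, of which there are UV, blue, green and red types, and the neighbouring pigment epithelium recycles the visual pigment.

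Depth was high in each library, with total counts between 70932504 (CTRL 1) and 144932681 (CTRL 3) and a median of 105906004. A gene was taken as detected in a library when it had over 3 counts, which stood for 0.0208 to 0.0439 CPM (each count scaled to a library total of 1000000, with the trimmed mean of M-values, TMM, factors of edgeR). By that floor, 22417 of the 25281 genes in the table were detected in all 9 libraries, 1582 in some of them and 1282 in none. Single libraries had 22920 to 23394 detected genes, and 22823 to 23125 after each was thinned to the smallest total, so the numbers differed little once depth was equal. A mean of at least 1 CPM was reached by 19177 genes, 10 CPM by 12017, 100 CPM by 1840 and 1000 CPM by 97.

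Libraries CTRL 3 and CTRL 11 stood nearer to each other than any other pair. Over genes with at least 10 counts in the pair, the Pearson dispersion of their counts (1 under sampling noise alone) was 14.6, against 72.0 for the next pair, CTRL 1 and CTRL 2, and 505 for the most distant pair, CTRL 6 and CTRL 10. At 10 CPM or more, only 6 genes differed over 2-fold between CTRL 3 and CTRL 11, against 609 between CTRL 6 and CTRL 10. The pair differed by more than counting noise, so by that measure it was not a duplicate deposit, and both were counted (n = 9). A dispersion above 1 does not show that they come from separate RNA, which was not tested.

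Reads were spread over many genes, and the genes at the top were those of translation, mitochondrial respiration, phototransduction and the cytoskeleton. The 10 highest genes took 6.41% of the mean CPM, the top 100 took 21.6% and the top 1000 took 51.6%, and 908 genes together held 50%. Single libraries needed between 625 (CTRL 10) and 1122 (CTRL 6) genes to reach 50% of their counts. CPM was not divided by transcript length, because no transcript lengths were used here, so ranks order genes by their share of reads and not by their number of transcripts. Symbols are spelled as the annotation gives them, in part in the human style, and a gene identifier is added where a symbol stands for several genes.

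The 2 genes with the most reads were eef1a1l1, a translation elongation factor, at 7453 to 11750 CPM (median 9182), and MT-CO1, a mitochondrially encoded subunit of cytochrome c oxidase, at 7534 to 10710 CPM (median 9660). The 20 highest genes included the cone opsins OPN1SW (UV), ranked 3, opn1lw2 (red), ranked 9, and opn1mw1 (green), ranked 10. The same 20 genes held MT-CO3, MT-CO2 and MT-CYB of the respiratory chain, the cytoskeletal actin actb2, the elongation factor eef2b, the chaperones HSP90AB1 and HSPA8, the ATP/ADP carrier SLC25A5, the ribosomal proteins RPS2 and RPLP0 and the linker histone histh1l1. Also among them were the surface-epithelium keratin krt4 (3961 ± 708 CPM, SD, n = 9), the plasma apolipoprotein apoa1b (3940 ± 473 CPM) and zgc:158463 (5269 ± 3321 CPM).

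**Figure D1:**
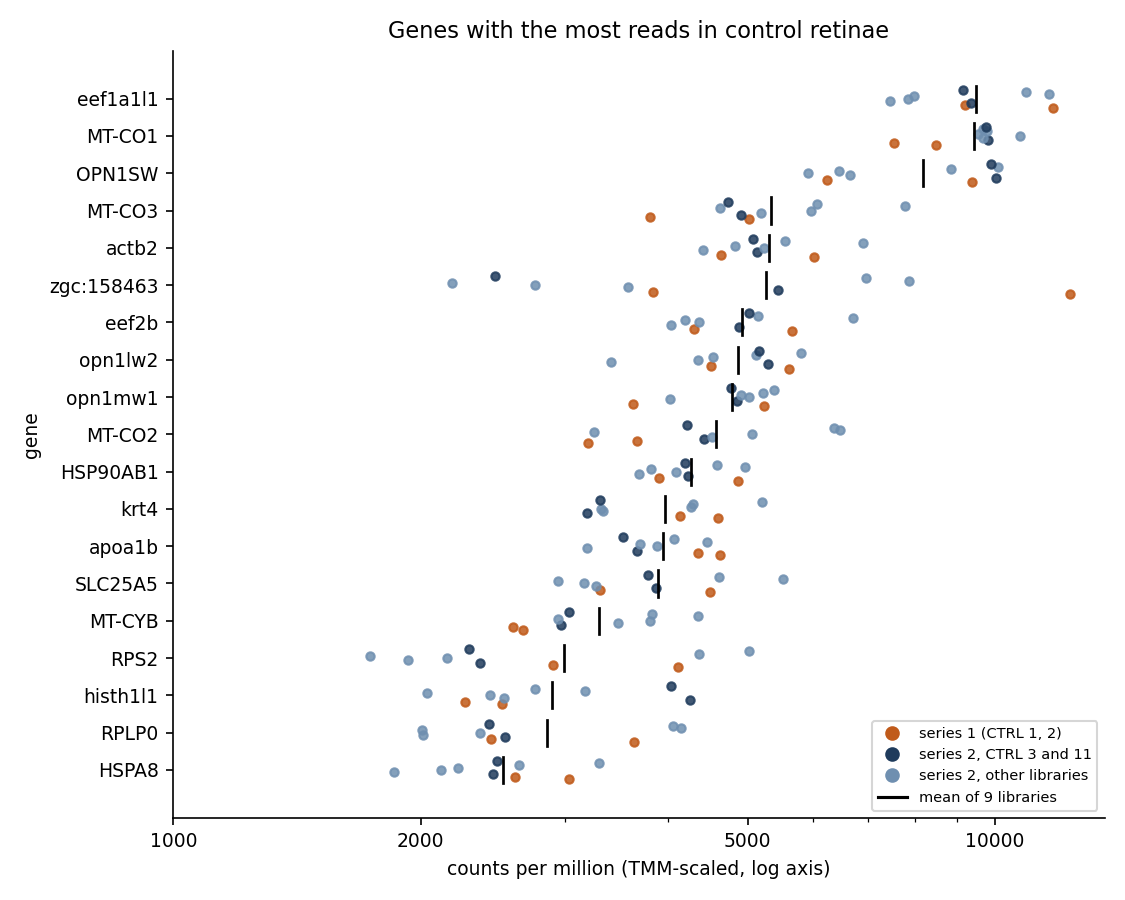
CPM (TMM-scaled, log axis) of 19 of the 20 genes with the highest mean over the 9 CTRL libraries, 1 point per library and a vertical tick at the mean. MT-CO1 lay between 7534 and 10710 CPM in all libraries, whereas zgc:158463 ranged from 2184 CPM in CTRL 6 to 12330 CPM in CTRL 1.

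Of these top genes, zgc:158463 varied most, with 12330 CPM in CTRL 1, 3833 in CTRL 2, 5443 in CTRL 3, 3575 in CTRL 4, 2756 in CTRL 5, 2184 in CTRL 6, 7865 in CTRL 8, 6974 in CTRL 10 and 2462 in CTRL 11. It was also one of the 6 genes that set CTRL 3 and CTRL 11 apart. MT-CO1 had the smallest SD of log2 CPM among the 20 genes, 0.15. As groups, the 13 mitochondrially encoded genes took 2.52% to 3.59% of the counts and 84 genes of ribosomal proteins 5.22% (CTRL 6) to 9.39% (CTRL 10). Of the 83 ribosomal protein genes at 10 CPM or more, 82 were lowest in CTRL 6 and 59 highest in CTRL 10, whereas 19.8% and 19.3% of all 12017 genes at that level had their extremes there.

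Cone genes took a larger share of reads than those of any other retinal class. The 27 genes of the cone list summed to 31379 ± 5539 CPM (SD, n = 9), 3.13% of the total, with 10 members at 1000 CPM or more and 24 at 10 CPM or more. OPN1SW had a lowest value of 5918 CPM, a median of 8838 and a highest of 10090. The red opsin opn1lw2 ran from 3410 to 5802 CPM (median 5120), the green opsin opn1mw1 from 3623 to 5376 CPM (median 4911) and the blue opsin opn1sw2 from 1655 to 2616 CPM (median 2341). Each of the 4 main cone opsins stayed within a 1.71-fold range, and CTRL 10 was highest for all 4 of them.

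Within the green and red opsin families, reads fell almost wholly on 1 gene each. The tandem copies opn1mw2, opn1mw3 and opn1mw4 had 77.0, 0.136 and 0.00839 CPM on average, the last at or under 3 counts in every library, and opn1lw1, the other red opsin, had 37.3 CPM. As shares of all cone opsin reads, OPN1SW took 40.4 ± 3.4%, opn1lw2 24.3 ± 1.7%, opn1mw1 24.1 ± 2.8% and opn1sw2 10.7 ± 0.5% (SD, n = 9). CTRL 5 departed from this, with 164 CPM of opn1mw2 where the other 8 libraries had 41.2 to 84.7 CPM, and with the lowest opn1lw1 (20.1 CPM) and the lowest OPN1SW (5918 CPM). The opsin copies resemble each other in sequence, and reads that fit more than 1 copy may have been lost or split in the counting.

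**Figure D2:**
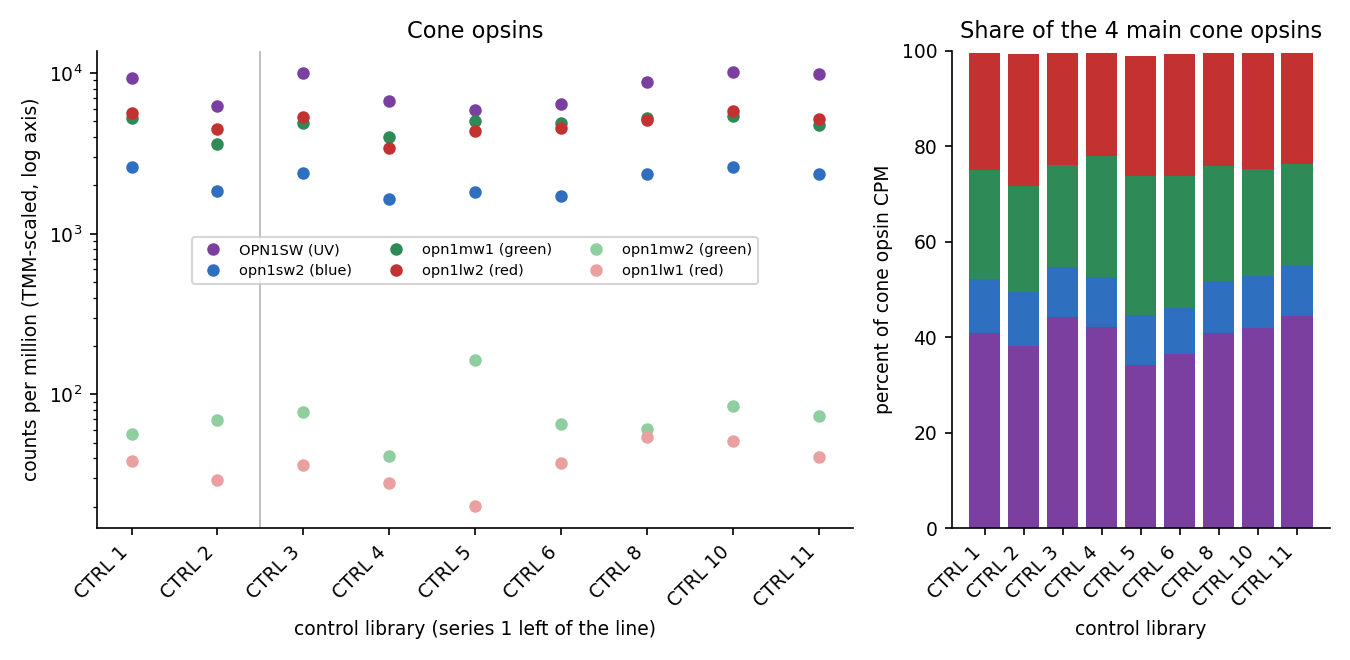
Left, CPM (TMM-scaled, log axis) of 6 cone opsins in each CTRL library, with the 2 libraries of series 1 left of the line. Right, stacked bars of the percent of all cone opsin CPM taken by OPN1SW, opn1sw2, opn1mw1 and opn1lw2 (bottom to top, same colours) in each library. The opn1mw2 level is highest in CTRL 5 at 164 CPM, and the OPN1SW share runs from 34.2% in CTRL 5 to 44.4% in CTRL 11.

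Downstream of the opsins, every cone cascade gene of the list was detected in all 9 libraries. GNAT2, the cone transducin alpha subunit, had 1648 to 2801 CPM (median 2205), and its beta subunit gnb3b 1464 to 2201 CPM (median 1948). The cone phosphodiesterase genes PDE6C and pde6ha averaged 1329 ± 374 and 1343 ± 504 CPM. ARR3, the cone arrestin that shuts off the activated opsin, is the symbol of 2 genes here, which averaged 1101 ± 452 (ENSDARG00000056511) and 400 ± 157 CPM (ENSDARG00000098475), and the cone opsin kinase GRK7 averaged 600 ± 190 CPM (ENSDARG00000020602). The 2 ARR3 genes ranged 3.76-fold and 3.23-fold between libraries, both lowest in CTRL 6 and highest in CTRL 3, more than any of the 4 main cone opsins. The transcription factors six7, TBX2 (ENSDARG00000018025) and THRB, which set cone subtypes, had 204 ± 44.2, 126 ± 21.1 and 104 ± 27.1 CPM.

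Most rod genes were lowest in CTRL 4 or CTRL 5. The rod list held 19 genes, all detected in every library. GNAT1, the rod transducin alpha subunit, had 198, 242 and 247 CPM in CTRL 4, 5 and 6 and 292 to 437 CPM in the others. The rod arrestin genes sagb and saga averaged 410 ± 120 and 194 ± 57 CPM, the rod opsin kinase GRK1 averaged 103 ± 29.9 CPM, and the transcription factor NR2E3, which represses cone genes in rods, had 20.5 to 51.3 CPM (median 38.2). Of the 17 rod genes at 10 CPM or more, 8 were lowest in CTRL 4 and 7 in CTRL 5, against 6.83% and 14.3% of all genes, and 16 had an SD of log2 CPM above the median of all genes. nrl, the rod-determining factor of mammals, had 6.49 ± 1.43 CPM. The median SD of rod genes was 0.40, that of cone genes 0.34 and that of all 12017 genes 0.17. In bulk RNA, a smaller number of rods and less RNA per rod cannot be told apart.

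Genes shared by rods and cones summed to 5705 ± 979 CPM over 32 genes, all detected in every library. The retinoid carriers rbp4l and rbp3 averaged 889 ± 228 and 854 ± 191 CPM, and both were lowest in CTRL 6, at 508 and 498 CPM. The outer segment rim protein PRPH2 had 494 to 794 CPM (median 718, ENSDARG00000014840) and 410 to 664 CPM (median 591, ENSDARG00000038018), and the photoreceptor transcription factor crx had 408 ± 71.8 CPM. CTRL 6 was the lowest library for 15 of the 28 shared photoreceptor genes at 10 CPM or more, against 19.8% of all genes.

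The visual cycle and pigment lists pointed to the same library. The 31 visual cycle genes summed to 3034 ± 646 CPM, from 1845 CPM in CTRL 6 to 3782 CPM in CTRL 8. CTRL 6 was lowest for 19 of the 22 members at 10 CPM or more, against 19.8% of all genes. RPE65 (ENSDARG00000007480), the retinoid isomerase of the pigment epithelium, had 71.8 CPM in CTRL 5 and 93.9 CPM in CTRL 6, and between 188 and 249 CPM in the other 7 libraries. The epithelial retinol dehydrogenase rdh5 behaved alike, with 16.5 and 13.7 CPM in CTRL 5 and 6 and 32.9 to 41.7 CPM elsewhere. CTRL 5 and 6 were thus the lowest libraries for both genes.

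Melanin genes were less divided. The premelanosome gene pmela had 113 to 231 CPM (median 168), DCT 59.8 to 119 CPM (median 92.5) and TYR, tyrosinase, 12.2 to 19.5 CPM (median 17.1), with CTRL 6 lowest for each of them. The whole list of pigment epithelium and melanin genes summed to 1011 ± 227 CPM over 22 genes. Genes of the other pigment cells were also found, with a sum of 198 ± 17 CPM over 11 iridophore and xanthophore genes, such as gch2 of pteridine synthesis (35.5 ± 12.1 CPM) and pnp4a of purine synthesis (17.1 ± 4.99 CPM).

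Inner retinal neurons gave steadier levels than cones. The amacrine list summed to 3078 ± 185 CPM over 25 genes (coefficient of variation 6.00%), the ganglion cell list to 3295 ± 149 CPM over 33 genes (4.53%), the horizontal cell list to 622 ± 44.3 CPM over 14 genes (7.12%) and the bipolar list to 1613 ± 216 CPM over 23 genes (13.4%), where the cone list had 17.7%. All 95 of these entries were detected in every library. The sums cannot rank the cell classes, since lists differ in size and genes in length.

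Among bipolar genes, gnao1b, the G protein subunit of ON bipolar cells, averaged 229 ± 38.2 CPM and VSX1, a bipolar transcription factor, 156 ± 38.6 CPM. The ON bipolar cation channel gene trpm1b had 88.0 ± 19.2 CPM, the glutamate receptor GRM6 (ENSDARG00000025671) 48.1 ± 5.82 CPM and the kinase PRKCA (ENSDARG00000115657) 107 ± 18.8 CPM. In CTRL 3 and CTRL 11 together, 10 of the 18 bipolar genes at 10 CPM or more were above all other libraries, against 13.5% of all 12017 genes. VSX1 was an example, with 224 and 215 CPM in CTRL 3 and 11 and 114 to 163 CPM in the other 7.

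Amacrine genes for inhibitory transmission were well expressed. The GABA-synthesizing enzymes GAD1 (ENSDARG00000027419) and GAD2 averaged 435 ± 51.1 and 262 ± 41.6 CPM, the glycine transporter SLC6A9 276 ± 49.9 CPM and the vesicular transporter of both, SLC32A1, 143 to 186 CPM (median 162). Rarer amacrine types were visible too. CHAT, of starburst cells that use acetylcholine, had 51.0 ± 8.10 CPM, and TH, of dopaminergic cells, 5.31 ± 1.02 CPM.

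Ganglion cell genes were led by those that other neurons share. The tubulin tubb2b and the RNA-binding ELAVL4 and ELAVL3 averaged 515 ± 99.1, 352 ± 53.6 and 320 ± 61.9 CPM. More selective genes were the RNA-binding RBPMS2 (191 ± 26.4 CPM, ENSDARG00000045930), the transcription factor POU4F2 (91.6 ± 7.14 CPM) and the glutamate transporter SLC17A6 (138 ± 15.4 CPM, ENSDARG00000041150). atoh7, which starts the ganglion cell program in progenitors, had 12.6 ± 2.43 CPM. In the horizontal list, PROX1, lhx1a and onecutl, transcription factors of these cells, had medians of 68.2 (64.3 to 78.3), 53.1 (48.9 to 70.7) and 28.6 CPM (25.1 to 30.4).

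Muller glia markers were all detected, with a sum of 4624 ± 474 CPM over 30 genes. GLUL, the glutamine synthetase that defines these cells in the retina, had 863 to 1509 CPM (median 1232, ENSDARG00000099776) and a second gene of that symbol 298 to 574 CPM (median 448). The glutamate transporter SLC1A2 averaged 946 ± 91.1 CPM (ENSDARG00000102453), apoeb, a glial apolipoprotein, 454 ± 72.4 CPM and the retinoid-binding rlbp1a 84.8 ± 13.1 CPM. GFAP, the filament gene that rises in gliosis, had 17.2 to 26.8 CPM (median 23.2), and it was lowest in CTRL 6 and highest in CTRL 10. SOX2 and the 2 SOX9 genes, transcription factors of glia and progenitors, averaged 106 ± 8.04, 54.7 ± 5.61 and 53 ± 5.87 CPM.

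Progenitor genes were present in the untreated retina. The 24 genes of the progenitor and ciliary margin list summed to 3484 ± 404 CPM, of which hmga1a, a chromatin protein of growing cells, gave 867 to 1455 CPM (median 1409). The eye field genes rx1 and rx2 averaged 193 ± 32.9 and 49.5 ± 6.22 CPM, the 2 PAX6 genes 185 ± 23.4 and 149 ± 21.9 CPM, the cyclin CCND1 156 ± 16.1 CPM and the ciliary margin collagen col15a1b 160 ± 16.7 CPM. ascl1a, a proneural factor of reprogramming Muller glia, had 14.9 ± 2.73 CPM. As with bipolar genes, 10 of the 23 progenitor genes at 10 CPM or more were above all others in both CTRL 3 and CTRL 11, against 13.5% of all genes.

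Cell cycle genes split off 1 library. The proliferation list summed to 1276 ± 240 CPM over 22 genes, and all 21 of its members at 10 CPM or more were lowest in CTRL 5, against 14.3% of all genes. PCNA, the sliding clamp of DNA replication, had 94.5 CPM in CTRL 5 and 128 to 268 CPM in the other 8 libraries. The marker of cycling cells mki67 had its minimum there, against 90.5 to 151 CPM elsewhere, and TOP2A, a topoisomerase of dividing cells, had 64.3 CPM there and 73.3 to 125 CPM. CTRL 5 also had the lowest list sum of progenitor genes (2818 CPM) and the highest of myelin genes (572 CPM). Fewer dividing cells and less RNA per dividing cell cannot be told apart.

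Summed levels of signalling genes linked to Muller glia reprogramming were mostly steady in the controls. The Notch list summed to 1258 ± 63.8 CPM over 25 genes (coefficient of variation 5.07%), with the receptors NOTCH3 at 190 ± 22.6 CPM and NOTCH1 at 94.3 ± 13.5 CPM (ENSDARG00000103554), the ligand DLD at 166 ± 16.7 CPM and the target her4.2 at 40.0 to 74.0 CPM (median 45.3). The reprogramming list summed to 3749 ± 329 CPM over 36 genes, 32 of them detected in every library. By member it was not steadier than other genes, with a median SD of log2 CPM of 0.19, against 0.17 for all genes and 0.16 for Notch genes. Of its 27 members at 10 CPM or more, 10 were above all others in both CTRL 3 and CTRL 11, against 13.5% of all genes. The Hippo effector YAP1 varied little (117 ± 7.16 CPM), while STAT3, the effector of cytokine signalling, had 37.5 and 40.8 CPM in CTRL 3 and 11 and 23.3 to 30.6 CPM in the other 7. LIN28A, an RNA-binding reprogramming factor, averaged 1.54 ± 0.570 CPM (ENSDARG00000016999), and the cytokine genes il6 and tnfa 0.0465 and 0.0303 CPM, close to the detection floor.

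Blood-borne and vascular cells left small but clear traces. The microglia and macrophage list summed to 237 ± 16.5 CPM over 30 genes, of which AIF1L alone gave 100 ± 6.33 CPM. The more selective phagocyte genes LCP1, MPEG1 (ENSDARG00000055290) and ptprc had 22.3 ± 2.90, 8.33 ± 1.61 and 5.31 ± 0.728 CPM, and the complement gene c1qa and the microglial receptor P2RY12 had 0.278 ± 0.0823 and 0.551 ± 0.122 CPM. The 4 neutrophil genes summed to 52.5 ± 10.8 CPM, among them lyz, lysozyme, at 7.93 to 27.1 CPM (median 11.6). The endothelial list, with cdh5 at 48.1 ± 7.92 CPM and the receptor kdrl at 41.7 ± 3.39 CPM, had the smallest coefficient of variation of all lists, 4.15% around 348 CPM over 19 genes.

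Marker genes of tissues outside the retina took a substantial share of reads. Skeletal muscle genes summed to 13088 ± 2561 CPM over 45 genes, and liver and plasma protein genes to 13487 ± 2048 CPM over 38. Cornea and epidermis genes summed to 15968 ± 3404 CPM over 27 and lens genes to 7182 ± 3904 CPM over 43. The lens sum leaves out the 21 gamma-M2d crystallins, lens genes described below, at 19560 ± 13512 CPM. Cartilage and sclera genes summed to 4931 ± 868 CPM over 18 and exocrine pancreas genes to 4095 ± 2756 CPM over 23. The pericyte and fibroblast sum was 3210 ± 339 CPM over 15. Some of these tissues adjoin the retina or belong to the eye (lens, cornea, sclera, eye muscle), and others do not (pancreas, liver). Smaller sums came from erythroid genes (686 ± 117 CPM), myelin genes (461 ± 59.7 CPM) and olfactory and brain region genes (322 ± 22 CPM). Their part in any retinal level above was not tested.

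**Figure D3:**
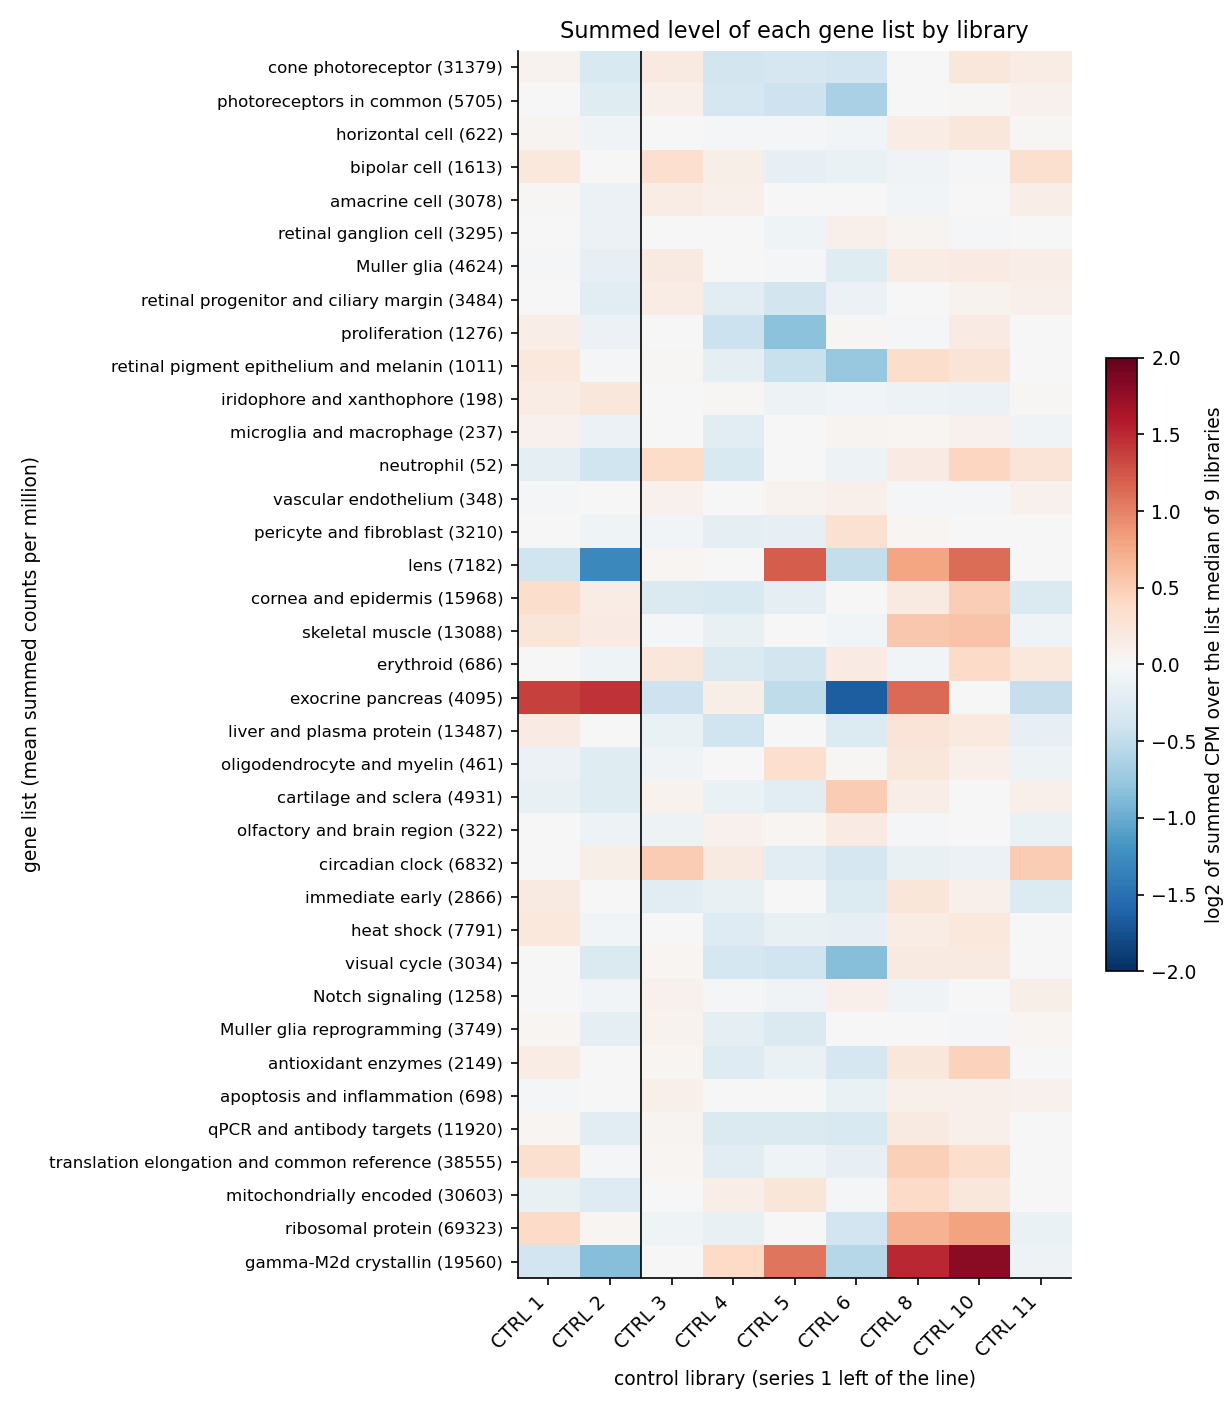
Each row is a gene list with its mean summed CPM in brackets, each column a CTRL library, and the colour gives the log2 ratio of the library's summed CPM to the median of the 9 libraries for that list (red higher, blue lower). Lens, gamma-M2d crystallin and exocrine pancreas rows hold the strongest colours, from 2387 CPM of lens genes in CTRL 2 to 13423 CPM in CTRL 5 and from 971 CPM of pancreas genes in CTRL 6 to 8278 CPM in CTRL 2.

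Pancreas genes varied most of all lists that hold no crystallins. Summed CPM was 7893 in CTRL 1, 8278 in CTRL 2, 2286 in CTRL 3, 3317 in CTRL 4, 2138 in CTRL 5, 971 in CTRL 6, 6698 in CTRL 8, 3056 in CTRL 10 and 2214 in CTRL 11. CTRL 1, 2 and 8 were therefore high and CTRL 6 low. All 19 members at 10 CPM or more were lowest in CTRL 6, against 19.8% of all genes. The digestive proteases ctrb.1 (chymotrypsinogen) and prss59.2 (trypsinogen) ranged from 145 to 1164 CPM and from 104 to 1100 CPM, and CPA1, a carboxypeptidase (ENSDARG00000021339), from 79.1 to 535 CPM. PTF1A, the acinar transcription factor that horizontal and amacrine precursors also use, had 1.37 ± 0.251 CPM.

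Lens genes other than the gamma-M2d crystallins summed lowest in CTRL 2, where pancreas genes summed highest. The gamma-M2d crystallins were also lowest in CTRL 2, and CTRL 5, 8 and 10 were the highest libraries for both lens sets. Summed CPM was 4405 in CTRL 1, 2387 in CTRL 2, 5985 in CTRL 3, 5808 in CTRL 4, 13423 in CTRL 5, 4156 in CTRL 6, 10088 in CTRL 8, 12603 in CTRL 10 and 5783 in CTRL 11, a range of 5.62-fold. Of 22 members at 10 CPM or more, 20 were lowest in CTRL 2 and 14 highest in CTRL 5, against 15% and 9.94% of all genes, among them CRYAA, an alpha crystallin, with 27.2 CPM in CTRL 2 and 192 CPM in CTRL 5. pitx3, a lens transcription factor also used elsewhere, did not share this spread (24.6 ± 2.85 CPM).

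The gamma-M2d crystallins, a group of 21 near-identical tandem genes of the fish lens whose reads may be split among copies, added 0.763% to 3.97% of the counts. Their sum was 7138 CPM in CTRL 2, 36598 CPM in CTRL 8 and 44813 CPM in CTRL 10. A set of lens RNAs thus differed 6.28-fold among libraries of the same group. Of the 21 genes, 18 were highest in CTRL 10, against 19.3% of all genes.

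Surface genes summed highest in CTRL 10 and CTRL 1, and muscle genes in CTRL 10 and CTRL 8. Keratins led the epidermal list, with krt4 at 3190 to 5203 CPM (median 4141), krt5 at 1728 to 3008 CPM (median 2092) and cyt1 at 1060 to 2574 CPM (median 1716). Of its 26 members at 10 CPM or more, 19 were highest in CTRL 10, against 19.3% of all genes. In muscle, the cardiac and skeletal actin actc1b averaged 2368 ± 353 CPM, the calcium pump atp2a1 1145 ± 106 CPM and the creatine kinase ckmb 864 ± 212 CPM. Of 42 members at 10 CPM or more, 15 were highest in CTRL 8 and 23 in CTRL 10, against 13.2% and 19.3% of all genes. Liver genes followed with apoa1b, the fetuin fetub (2137 ± 473 CPM) and fabp10a, a liver fatty acid carrier (326 to 889 CPM).

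Connective tissue genes set CTRL 6 apart. COL2A1, the main collagen of cartilage and of the vitreous, had 2348 CPM in CTRL 6 and 1320 to 1753 CPM in the other 8 libraries (ENSDARG00000069093). The bone and skin collagen col1a1a had 1156 CPM there and 683 to 891 CPM elsewhere. CTRL 6 was highest for 13 of the 18 cartilage and sclera genes at 10 CPM or more, for 8 of 13 pericyte and fibroblast genes, for 8 of 11 olfactory and brain region genes and for 12 of 29 ganglion cell genes, against 14.5% of all genes. The same library was lowest for most visual cycle, pancreas and ribosomal protein genes and for 15 of 28 genes shared by rods and cones, as given above, and the part of its tissue makeup in those levels was not tested.

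Genes of erythroid cells and of brain regions were also found, 3 of the 21 erythroid genes at 100 CPM or more. The embryonic globin hbae3 had 129 to 272 CPM (median 188), alas2, of haem synthesis in red cells, 12.7 ± 3.13 CPM and the erythroid factor gata1a 0.707 ± 0.229 CPM. EN2 (ENSDARG00000026599) and DLX5, transcription factors of the midbrain boundary and the placodes, had 20.4 ± 3.02 and 17.3 ± 1.64 CPM. mbpa, myelin basic protein, had 107 to 175 CPM (median 123), highest in CTRL 5.

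Circadian clock genes were well expressed and differed between controls more than most genes did. The list summed to 6832 ± 1485 CPM over 44 genes, and 26 of its 42 members at 10 CPM or more ranged over 2-fold, against 9.89% of all 12017 genes. PER2, a light-inducible gene of the zebrafish clock, had 28.8 CPM in CTRL 1, 21.1 in CTRL 2, 300.0 in CTRL 3, 107 in CTRL 4, 53.0 in CTRL 5, 38.7 in CTRL 6, 36.3 in CTRL 8, 117 in CTRL 10 and 303 in CTRL 11. CTRL 3 and 11 were thus far above the others and CTRL 2 lowest, 14.4-fold below CTRL 11.

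The same pair stood out for other light- and clock-linked genes. CRY1 (ENSDARG00000045768), a clock repressor, had 301 CPM in both CTRL 3 and 11 and 105 to 209 CPM in the other 7 libraries, nfil3-6, a bZIP factor, had 178 and 175 CPM against 45.2 to 118, and BHLHE40, a repressor tied to the clock, had 1009 and 983 CPM against 418 to 784. In all, 20 of 42 clock genes were above every other library in both CTRL 3 and CTRL 11, against 13.5% of all genes. The 2 CLOCK genes of the positive arm had 60.6 and 64.5 CPM (ENSDARG00000003631) and 26 and 29.1 CPM (ENSDARG00000011703) in CTRL 3 and 11, inside the range of the other 7, whereas npas2, a relative of CLOCK, had 21.4 and 23.9 CPM and at most 20.04 CPM elsewhere. The time of day at collection is not given in the sources used here. These libraries are also the nearest pair by dispersion, and whether they share RNA was not tested.

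**Figure D4:**
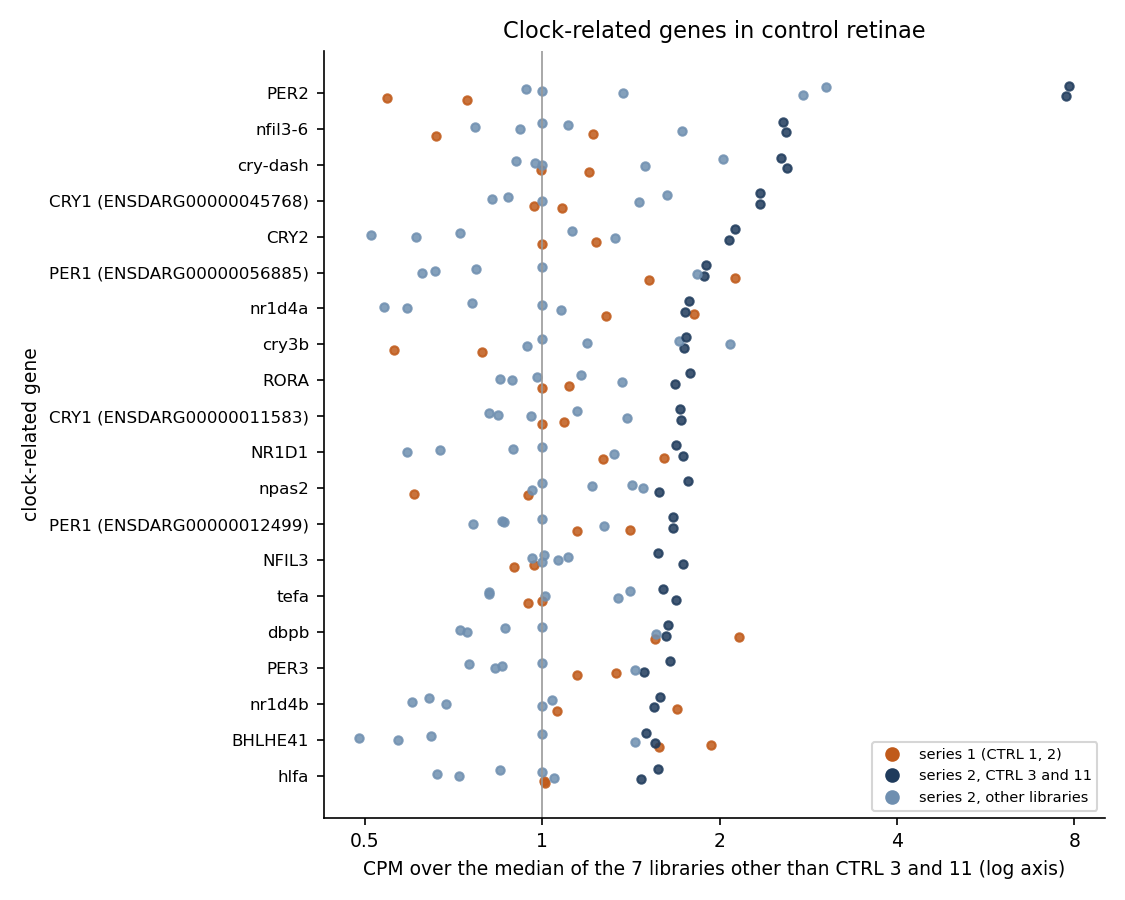
The 20 clock-related genes at 10 CPM or more with the highest ratio of the CTRL 3 and 11 mean to the median of the other 7 libraries, 1 point per library, as CPM over that median (log axis). CTRL 3 and 11 lie at nearly the same place in each row, with a mean of 7.80 for PER2 and of 1.52 to 2.58 for the other genes.

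Some stress-linked genes were high in the same pair, as were genes of several retinal classes. At 10 CPM or more, 13.5% of all genes were above and 5.63% below every other library in both CTRL 3 and CTRL 11. Of 24 heat shock genes at that level, 7 were above (29.2%) and 1 below. Of 32 antioxidant genes, 5 were above (15.6%), near the share of all genes, and 0 were below. The inducible chaperone genes hsp70.3, hsp70l and hsp70.1 had 39.7, 39.3 and 21.6 CPM in CTRL 3 and 39.2, 38.7 and 20.6 CPM in CTRL 11, where the other 7 libraries had at most 13.5, 19.4 and 9.26 CPM. The cytokine il1b had 7.5 and 7.42 CPM in that pair and 1.64 to 3.36 CPM elsewhere, and MMP9, a matrix protease, 35.6 and 32.3 CPM, against at most 22.1 CPM. Immediate early genes went both ways, with 7 of 30 above and 9 of 30 below all others in the pair. The neuronal activity gene egr1 had 426 and 411 CPM in CTRL 3 and 11 and 644 to 840 CPM elsewhere, and egr4 40.3 and 38.2 CPM and 84.9 to 144 CPM, whereas JUN had 216 and 203 CPM and 132 to 197 CPM. The immediate early list summed to 2866 ± 390 CPM over 35 genes.

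Constitutive chaperones took more reads than inducible ones, and antioxidant genes varied more than most genes. HSP90AB1 and HSPA8 (ENSDARG00000068992) made up most of the heat shock list, which summed to 7791 ± 900 CPM over 34 genes, and HSPA5, the chaperone of the endoplasmic reticulum, had 122 ± 17.7 CPM. The antioxidant list summed to 2149 ± 375 CPM over 42 genes, with the peroxiredoxin PRDX1 at 261 ± 75.2 CPM, catalase (CAT) at 170 ± 16.2 CPM, the regulator NFE2L2 at 138 ± 24.2 CPM and the superoxide dismutase SOD1 at 77.9 ± 18.8 CPM. CTRL 10 was highest for 17 and CTRL 6 lowest for 19 of its 32 members at 10 CPM or more, against 19.3% and 19.8% of all genes, and 13 of the 32 ranged over 2-fold, against 9.89%. HMOX1, the inducible haem oxygenase, ranged 4.01-fold, with 13.2 CPM in CTRL 6 and its highest level in CTRL 5.

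In the death and inflammation list, 14 genes had 10 CPM or more and 1 had 100 CPM or more. The list summed to 698 ± 37.5 CPM over 26 genes, led by the survival factor mcl1a (146 ± 34.9 CPM). The pro-apoptotic BAX had 26.1 ± 1.42 CPM, while the chemokine cxcl8a ranged from 0.852 to 5.30 CPM.

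The genes that the study measured by qPCR or antibody, and common reference genes, differed in how steady they were. The study's 24 target genes summed to 11920 ± 1576 CPM, and UBE2A, its qPCR reference, had 62.3 to 81.8 CPM (median 70.9) with an SD of log2 CPM of 0.14. HPRT1 and TBP, reference genes for many tissues, had 50.9 ± 3.02 CPM (SD of log2 CPM 0.08) and 21.2 ± 2.22 CPM (0.15). GAPDH, of glycolysis, was among the less steady, at 629 to 1762 CPM (0.49), and the translation and reference list as a whole summed to 38555 ± 6890 CPM over 29 genes. The inducible nitric oxide synthase genes NOS2 were low, at 0.916 ± 0.204 (ENSDARG00000031976) and 0.283 ± 0.189 CPM (ENSDARG00000026925).

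Spread between controls was measured over all genes. According to the study, samples that stood apart from their replicates were excluded. The spread given here is that of the 9 libraries analysed, which may be those kept for clustering together. Over 12017 genes at a mean of 10 CPM or more, the SD of log2 CPM between the 9 libraries had a median of 0.17, with 0.09 at the 10th and 0.33 at the 90th percentile, and the median coefficient of variation was 11.6%. The lowest and highest libraries differed over 2-fold for 1189 genes (9.89%) and over 4-fold for 144 (1.2%). The biological coefficient of variation that edgeR fits to all genes was 0.188 with the 9 libraries as 1 group. Genes with the most reads varied more, since the median SD was 0.24 at 1 to 10 CPM, 0.17 at 10 to 100, 0.18 at 100 to 1000 and 0.32 at 1000 CPM or more.

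**Figure D5:**
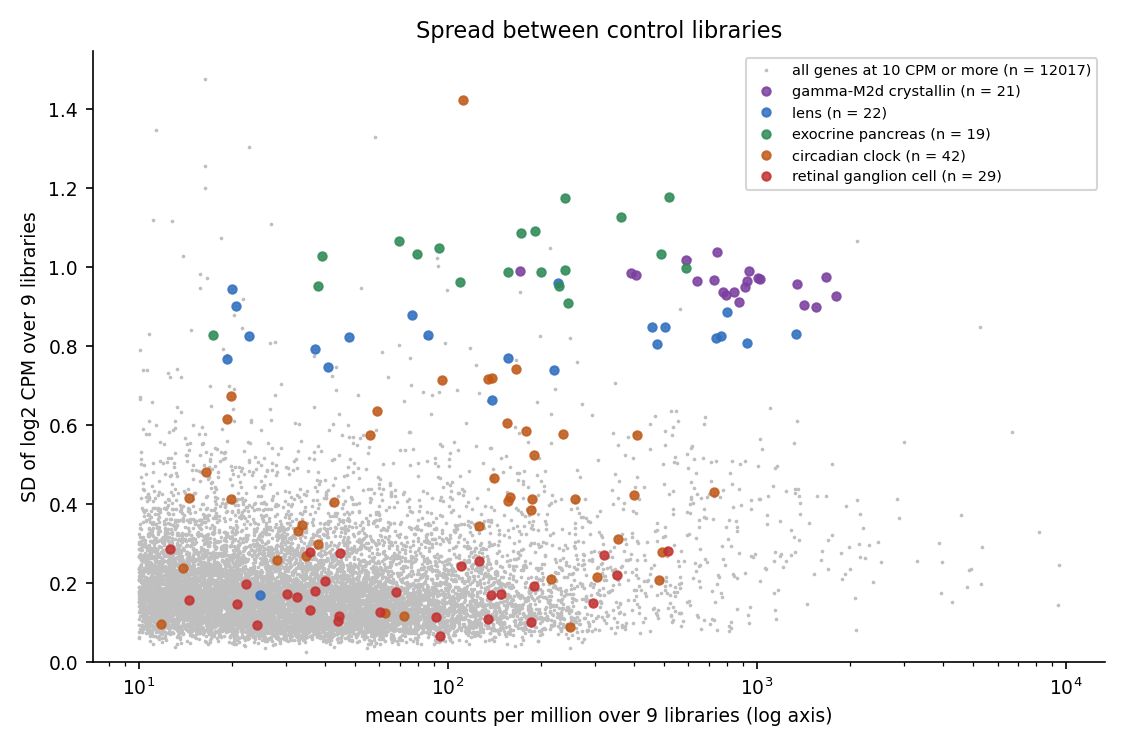
SD of log2 CPM over the 9 CTRL libraries against mean CPM (log axis) for the 12017 genes at 10 CPM or more (grey), with 5 gene lists in colour. Exocrine pancreas, lens and gamma-M2d crystallin genes lie high, with medians of 1.03, 0.82 and 0.97, ganglion cell genes near the bulk with 0.17, and PER2 (clock) at 1.42.

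The most variable genes came largely from lens and pancreas. Of the 100 genes with the largest SD among the 12017, 21 were gamma-M2d crystallins, which is all 21 of that set. Another 16 were other lens genes, of 22 at 10 CPM or more, and 19 were pancreas genes, of 19. A further 41 of the 100 were in no list. Among those with the largest SDs of log2 CPM were PER2 (1.42), loc100334908 (1.35), crp5 (1.33) and TG, thyroglobulin, the hormone precursor of the thyroid (1.3). TG had 96.8 CPM in CTRL 1 and 5.37 to 33.9 CPM in the other 8 libraries. The first 15 also held the protease genes prss59.2, ela2l, prss59.1, ela3l and ctrb.3, the pancreatic SYCN, the crystallin crygm2c and 3 genes without a symbol, of which ENSDARG00000116179 ranged from 2.56 to 38.5 CPM, ENSDARG00000112047 from 2.93 to 37.4 CPM and ENSDARG00000112702 from 2.83 to 25.5 CPM.

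At the other end stood genes of general cell upkeep and signalling. USP48, a deubiquitinase, had 34.1 to 36.2 CPM in all 9 libraries, the smallest SD of log2 CPM of all (0.03). The transcription cofactor LDB1 (236 to 256 CPM) and the ciliary transport gene IFT172 (40.8 to 44.1 CPM) were nearly as even. SEC22A and USO1 of vesicle traffic, CYTH1, ZFPL1, the kinase ILK (ENSDARG00000056964) and the splicing factor PRPF3 were also among the 10 steadiest, with SDs of 0.04 to 0.05.

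Both library series were compared to see whether the controls fell into index groups. In a principal component analysis of 500 genes with the largest variance, component 1 took 26.6% of it and averaged 14.6 in series 1 and -4.18 in series 2 (exact permutation test over 36 splits, two-sided, p = 0.0556, 0.222 after Benjamini-Hochberg adjustment over 4 measures). The second (24.7% of the variance) gave p = 0.111, total counts p = 0.167 and the thinned number of detected genes p = 0.306 in the same exact test, and with 2 against 7 libraries no p could fall below 0.0278. Genes outside all lists, 411 of the 500, carried 77.2% of the squared loadings of the first component. Pancreas genes, 20 of the 500, carried 9.46%, and lens genes, 28 of the 500, carried 7.43%.

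No gene passed edgeR's quasi-likelihood test between the series at a false discovery rate under 0.05 and a change of over 1.5-fold, so 0 of 22891 genes were called (0.0%). In the same test, an unadjusted p under 0.05 was reached by 1141 of the 22891 genes. That is about the share that a threshold of 0.05 passes when no gene differs. DESeq2 called 63 genes, 33 higher and 30 lower in series 1, and limma-voom called 0. In simulated counts of this design, the edgeR test recovered 78.0% of 200 genes changed by a log2 fold change of 1, with 7 false calls. Of those changed by 2, it recovered 99.5%, with 10 false calls. In the real libraries, the same test gave pdia2 a log2 fold change of 1.55 at a false discovery rate of 0.476. For CPB1 (ENSDARG00000045442) it gave 1.63 at 0.511, and neither gene was called. Whether the recovery in simulated counts holds for the real libraries was not tested. The labels do not state separate cultures or clutches for these samples, so p-values measure the spread between them, which may be in part technical.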

How the data were processed

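RNA-seq libraries of control retinae were described from the deposited raw counts, which the authors had not normalized. According to the study, the authors isolated poly(A)+ RNA, made strand-specific paired-end libraries, used Trimmomatic for trimming, STAR for alignment to GRCz11 and featureCounts for strand-specific exon counts (Trimmomatic 0.39 and STAR 2.7.9a per the submitters' processing notes). How reads with several alignments were counted is not given in the sources used here. Light-exposed libraries were left out.

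A symbol was found for 23499 of 25281 identifiers, and the rest took 0.587% to 1.01% of the counts. edgeR 4.0.16 (R 4.3.3) gave TMM factors, CPM, log2 CPM with a prior count of 2 and the quasi-likelihood test, with limma 3.58.1 and DESeq2 1.42.0 as alternatives. Tables and plots were made with Python 3.11.15, pandas 2.3.3, numpy 2.4.6, scipy 1.17.1 and matplotlib 3.10.9. Depth of 70932504 to 144932681 counts per library made the spread between libraries, not counting error, the main limit on precision. The test was checked on simulated data.

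Genes were named by these rules: the 20 highest in CPM, members of 35 gene lists, and the 15 largest and 10 smallest SDs of log2 CPM at 10 CPM or more. The lists, and 3 further sets (mitochondrially encoded, ribosomal protein and gamma-M2d crystallin genes), were chosen with earlier results of these data known. Some genes that met these rules are not reported here.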

Additional observations from a re-analysis of the deposited data

Results flagged for a closer look

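Each library measure, list sum and gene that the text considers was checked for a single library far from the other 8, by Dixon's ratio of gap to range at its 95% critical value. Of 332 values checked, 19 passed, which is near the share of about 1 in 20 that chance alone flags. The values were not independent, since list sums were checked beside their own members. Some genes were also named for their large SD in these same libraries. The flags below are therefore a description and do not set any library apart.

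CTRL 6 was the extreme library for 8 of them. It was the highest for the summed CPM of pericyte and fibroblast genes (3991), for that of cartilage and sclera genes (6900), for the collagens COL2A1 (2348 CPM for ENSDARG00000069093 and 488 CPM for ENSDARG00000011407) and col1a1a (1156 CPM), for the receptor NOTCH3 (245 CPM), for TP63, a factor of basal epidermis (49.1 CPM), and for gata1a (1.25 CPM).

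CTRL 10 was highest for the myosin gene myhz1.1 (863 CPM), the epithelial adhesion gene epcam (478 CPM), the mitotic kinase CDK1 (43.3 CPM) and lyz (27.1 CPM). CTRL 8 was highest for NEUROD1, a photoreceptor and neuronal transcription factor (478 CPM), for crp5 (160 CPM) and for a low-count NPAS4 gene (2.19 CPM). Single extremes were opn1mw2 in CTRL 5 (164 CPM), TG in CTRL 1 (96.8 CPM), USO1 in CTRL 11 (62.1 CPM) and NOS2 (ENSDARG00000026925) in CTRL 4 (0.763 CPM).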

How the results depend on the processing

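Other scalings, series 2 alone, CTRL 3 and 11 added up and leaving out each library kept all 532 alternative list sums and all 4074 alternative gene means within 1 SD of the values given, and every count of detected genes, of genes at 1 CPM and of genes holding 50% of reads, and the median SD, within 1.5 times. For sums and means, leaving out 1 library or series 1 cannot move a mean by 1 SD at this number of libraries. Those outcomes were fixed in advance and do not show robustness. The exception among all results was the number of genes called between series. It was 0 with edgeR and 63 with DESeq2, and the cause was not tested. Leaving out 1 library each gave 0 to 1 genes, the single call coming without CTRL 10. No paired analysis was possible because only CTRL libraries are used, and series 1 and series 2 share no replicate number. Genes near the detection floor of 0.0208 to 0.0439 CPM rest on few counts, and levels of different genes cannot be compared without transcript lengths.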
